A study of Mus musculus with 12 samples.

Results

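Protocadherins are the largest subgroup of the cadherin superfamily, and their RNA was measured in polyps and in normal colorectal tissue of mice that carry 1 truncated Apc allele, and in normal tissue of wild-type mice. The genes were chosen by name, as every probe whose gene name in the scanner files begins with Pcdh, and no measured value decided membership. These probes number 64 and read 47 of the 30139 genes or transcripts on the array, namely 7 genes of the alpha cluster, 22 of the beta cluster, 6 of the gamma cluster and 12 unclustered genes. The family was taken up with results of these arrays known, so its counts are a description to be read beside those of all genes. Arrays fell into 3 groups of 4, and all tissue came from the colorectum of C57BL/6N females aged 14 weeks. Apc polyps were adenomas of Apc+/Δ716 mice, which carry a truncated germline allele of the Wnt-pathway tumour suppressor Apc beside a normal one. Apc normal arrays hold normal tissue of the same 4 mice, numbered 103, 106, 107 and 110. Wild-type arrays hold normal tissue of mice 102, 104, 105 and 108.

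Clustered protocadherins lie in a tandem array, and each neuron switches on a small, partly random choice of their promoters through DNA methylation, CTCF and distant enhancers. Variable exons of the alpha and gamma clusters are spliced to constant exons that all isoforms of the cluster share, whereas each beta gene is a single exon with no constant part. The proteins bind their own kind on a neighbouring cell, and neurons use the mixture to tell their own processes from those of other cells. Unclustered protocadherins, among them the delta group, are adhesion proteins each with its own locus and its own tissues. In the intestine they are less studied than the classical cadherins of the epithelium.

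Levels are log2 of the background-subtracted processed signal minus that array's 75th percentile, so that 0 is the 75th percentile of the array and a difference of 1 is a doubling. Probes differ in brightness for the same amount of RNA, so levels of different probes are not compared as amounts, and where probes of a gene are set side by side only the change of their gap between tissues is read. Values by array are listed by mouse, 103, 106, 107 and 110 for polyps and Apc normal tissue and 102, 104, 105 and 108 for wild-type tissue. Differences are polyp minus Apc normal, polyp minus wild-type, and Apc normal minus wild-type, each with the standard error and the Benjamini-Hochberg adjusted p of a limma fit to the 8 arrays compared, over 20082 genes. The brightest probe of a gene stood for it, and the gene was tested if that probe exceeded background clearly, by the scanner's own flag, throughout at least 1 of the 3 groups. It was called at an adjusted p under 0.05. The polyp arrays enter both polyp comparisons and the Apc normal arrays enter 2 of the 3 comparisons, so these are not independent.

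Across the 12 arrays, 64.6 to 73.8% of non-control spots were well above background and none was saturated. The correlation between arrays of a group lay between 0.959 and 0.992. All wild-type arrays sat on slide 1, so that genotype and slide cannot be told apart in comparisons with wild-type tissue. Slides 2 and 3 each held the polyp and the normal tissue of the same mice. The tested Apc probe differed between polyps and Apc normal tissue by -0.38 ± 0.11 (limma, adjusted p = 0.0265), and Apc normal tissue differed from wild type by 0.06 ± 0.11 (adjusted p = 0.818); whether the probe reads the truncated transcript is not recorded, so it does not check the genotype. The epithelial marker list, which includes Cdh1 and Epcam, had a mean level of 5.04 to 5.47 in polyps, 5.74 to 6.11 in Apc normal tissue and 5.70 to 6.08 in wild-type tissue. In whole tissue, fewer cells of a type and less RNA per cell cannot be told apart.

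Pcdh19 and Pcdh20, which had the largest differences among the unclustered genes, are each read by a 60-base probe, and Pcdh7 is read by 3 probes at different transcript ends. The first 30 bases of those probes are shown because the Pcdh7 values below are given for each of them. Coordinates are those of the mm9 build in the scanner files, for the whole probe. The Pcdh19 probe lies on the minus strand at chrX:130122356-130122415, the Pcdh20 probe on the minus strand at chr14:88865889-88865948, and the Pcdh7 probes on the plus strand at chr5:58120201-58120260 for transcript variant 2 and at chr5:58520529-58520588 and chr5:58523420-58523479 for variant 1.
Pcdh19: agagctttccctaaatgtattgtgtataag
Pcdh20: atatcttagtgcactcttcgctggtcagca
Pcdh7 variant 2: aagttccattgcatgagaccttttagttgt
Pcdh7 variant 1, first probe: aaacaggagaatataagccatctcctgtca
Pcdh7 variant 1, second probe: taatatggggctgcttaaatatcactggac

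Most of the tested beta-cluster genes rose in polyps against either normal tissue, by up to 7.83-fold over Apc normal tissue for Pcdhb7. Only 3 alpha and 3 gamma genes were tested, some through probes shared between genes, and none was called higher. Of the 47 protocadherins 31 could be tested and 16 could not. Against Apc normal tissue 14 were called higher and 3 lower in polyps, which is 45.2% and 9.68% of those tested, where 20.5% of all tested genes were called higher and 24.9% lower. The median difference of the 31 was 0.56, against -0.06 over all tested genes. The 14 comprised 12 of the 15 tested beta genes together with the unclustered Pcdh19 and Pcdh7, and the 3 were Pcdhac2, Pcdh20 and Pcdh1. Among the 15 tested beta genes 6 passed the filter through the polyps alone. Against wild-type tissue 17 were called higher and 7 lower, or 54.8% and 22.6%, where 27.4% of all tested genes were called higher and 32.8% lower. The 17 were all 15 tested beta genes, Pcdh19 and Pcdh7, and in 1 fit of all 12 arrays Pcdhb9 was no longer called (adjusted p = 0.0715). Of the 7 lower calls that fit also ended those of Pcdhgc5 (limma, adjusted p = 0.0726) and Pcdh9 (adjusted p = 0.172).

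The whole alpha, beta and gamma series lies on chromosome 18 of mm9. Alpha probes span 37114742 to 37347294, beta probes 37427011 to 37680728 and gamma probes 37823813 to 38001437.

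The filter shaped the beta count. Of the 15 tested beta genes, 6 passed it through the polyps alone (Pcdhb3, Pcdhb9, Pcdhb10, Pcdhb15, Pcdhb18 and Pcdhb22), and such genes had to be brighter in polyps, so they support nothing by their number. The other 9 were well above background on all 8 polyp and Apc normal arrays, and 7 of those 9 were called higher in polyps. Under that stricter filter 22 protocadherins were tested against Apc normal tissue, with 9 called higher and 1 lower, where 20.3% of all 17887 genes passing it were called higher and 25.4% lower. Against wild-type tissue it left 19, with 8 called higher and 5 lower, where 26.7% of all genes were called higher and 33.3% lower.

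The size of these differences depended on the background correction. Background correction by normexp with an offset of 50, followed by quantile normalization, made all 17 called differences from Apc normal tissue smaller, 13 of them by more than 1.5 times, and all 24 from wild-type tissue, 17 of them by more than 1.5 times. No call was lost by it. Against Apc normal tissue Pcdh19 was then 4.77-fold, Pcdhb7 4.37-fold and Pcdh7 1.80-fold higher, and Pcdh20 was 1.87-fold and Pcdhac2 1.45-fold lower. The folds and bounds below are those of the scanner's own background subtraction.

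**Figure D1:**
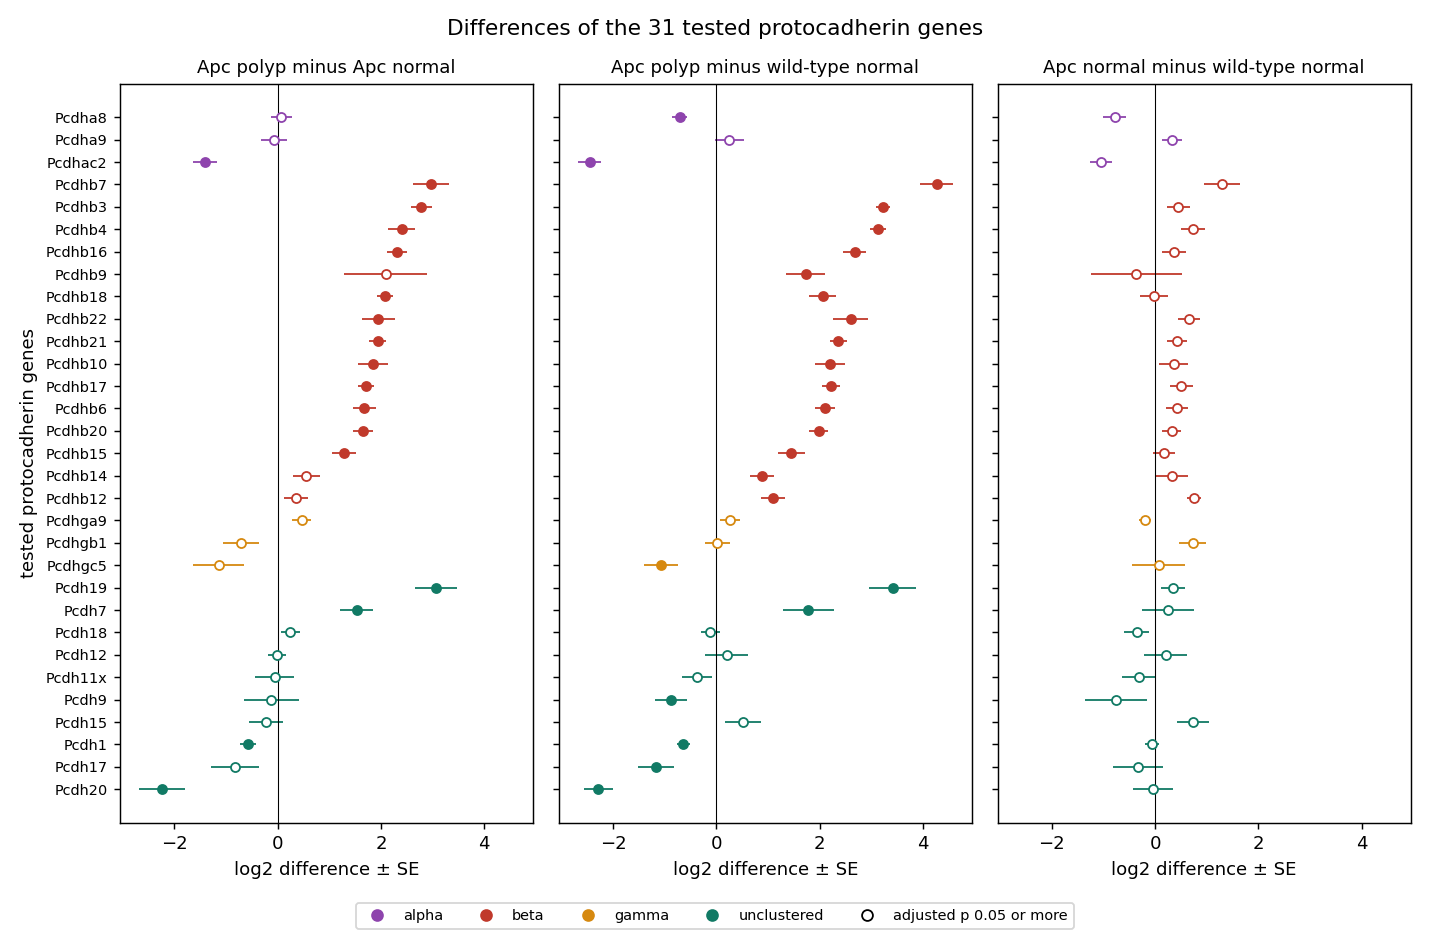
Differences of the 31 tested genes on the log2 scale with the standard error of the limma fit, in alpha, beta, gamma and unclustered genes; filled points have an adjusted p under 0.05. All 15 beta genes lie to the right of 0 in both polyp panels, with 12 filled against Apc normal and 15 against wild-type tissue, and no point is filled in the panel of Apc normal minus wild-type tissue. Of the 15 beta genes 6 passed the filter through the polyps alone, so their side of 0 supports nothing. Of all tested genes 20.5% were called higher in polyps than in Apc normal and 27.4% than in wild-type tissue.

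Detection followed the same split. Of the 22 beta probes, 18, 18, 15 and 17 were well above background on the polyp arrays of mice 103, 106, 107 and 110, against 10, 10, 10 and 13 on the Apc normal arrays of those mice and 7, 11, 10 and 10 on the wild-type arrays. The lowest polyp array had more detected beta probes than the highest normal array. Over all probes, 64.1, 72.2, 66.1 and 72.9% were detected on those polyp arrays, 66.5, 63.4, 65.5 and 69.9% on the Apc normal arrays and 64.2, 66.8, 65.7 and 70.1% on the wild-type arrays, so polyps 106 and 110 detected more probes in general and polyps 103 and 107 lay within the range of the normal arrays. Counting genes well above background on all 4 arrays of a group, there were 15 beta genes in polyps, 9 in Apc normal tissue and 7 in wild-type tissue. The 15 are the tested beta genes themselves, and the share of all genes so detected in each group is not given here.

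Pcdhb7 had the largest difference of the cluster. Its levels were -0.55, -1.17, -1.45 and -1.69 in Apc polyps, -5.05, -3.75, -4.09 and -3.84 in Apc normal tissue, and -5.68, -5.63, -4.72 and -5.89 in wild-type tissue. The polyp arrays were apart from both normal groups, and polyp 103 was the highest. The difference was 2.97 ± 0.34 against Apc normal tissue, 7.83-fold (limma, adjusted p = 0.000368), and 4.27 ± 0.32 against wild-type tissue, 19.2-fold (adjusted p = 2.06e-05), where it was above background on 2 of 4 arrays. Pcdhb4, which lies close by in the cluster, stood at -1.85, -2.35, -2.50 and -2.51 in Apc polyps, -5.30, -4.22, -4.90 and -4.38 in Apc normal tissue, and -5.42, -5.53, -5.49 and -5.32 in wild-type tissue. Polyp arrays again did not overlap with either group. It was 5.27-fold higher than in Apc normal tissue (2.40 ± 0.27, adjusted p = 0.00031), and its difference from wild-type tissue was 3.14 ± 0.16. Pcdhb6, which lies between Pcdhb4 and Pcdhb7, was at -2.07, -2.39, -2.39 and -2.84 in Apc polyps, -4.62, -3.81, -4.01 and -3.94 in Apc normal tissue, and -4.71, -4.29, -4.27 and -4.83 in wild-type tissue. It too was apart from both normal groups, with a difference of 1.67 ± 0.22 against Apc normal and 2.10 ± 0.20 against wild-type tissue.

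Toward the far end of the cluster Pcdhb16 was at -1.63, -1.44, -1.85 and -2.06 in Apc polyps, -4.46, -3.97, -3.97 and -3.82 in Apc normal tissue, and -4.95, -4.37, -3.92 and -4.47 in wild-type tissue. Every polyp value exceeded every normal value, and the difference in means was 2.31 ± 0.19 against Apc normal tissue (4.96-fold, limma, adjusted p = 0.0001) and 2.68 ± 0.23 against wild-type tissue. Pcdhb17 was at -1.68, -1.58, -1.68 and -1.64 in Apc polyps, -3.75, -3.44, -2.99 and -3.23 in Apc normal tissue, and -4.32, -3.55, -3.58 and -4.00 in wild-type tissue. Its polyp arrays lay close together and above all normal arrays, and the difference was 1.71 ± 0.16 against Apc normal and 2.22 ± 0.17 against wild-type tissue. Pcdhb20 was at -1.98, -1.84, -2.19 and -2.48 in Apc polyps, -4.15, -3.61, -3.53 and -3.83 in Apc normal tissue, and -4.48, -4.04, -3.98 and -3.91 in wild-type tissue. It was 3.15-fold higher in polyps than in Apc normal tissue and 3.94-fold higher than in wild-type tissue, with no overlap. Pcdhb21 was at -1.28, -1.01, -1.33 and -1.15 in Apc polyps, -3.51, -2.87, -3.17 and -2.95 in Apc normal tissue, and -3.90, -3.51, -3.17 and -3.64 in wild-type tissue. Its polyp values lay above all others, with a difference in means of 1.93 ± 0.16 against Apc normal tissue (adjusted p = 0.000107) and 2.36 ± 0.16 against wild-type tissue (adjusted p = 1.38e-05).

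Genes that passed through the polyps alone have a lower bound or a partly measured reference. As the filter selected them through the polyps, their p-values here and below support nothing. Pcdhb3 was above background on all 4 polyp arrays and on no normal array, at -4.22, -4.45, -4.27 and -4.35 in Apc polyps, -7.60, -6.85, -7.28 and -6.68 in Apc normal tissue, and -7.71, -7.77, -7.22 and -7.51 in wild-type tissue. Its level was at least 2.63-fold higher in polyps than in Apc normal tissue and at least 3.01-fold higher than in wild-type tissue, where the normal groups are set at the dimmest detected probe of each array or at the probe's own value if higher. Pcdhb10 was likewise detected on all polyp arrays and on none of the others, at -3.40, -3.58, -4.07 and -4.41 in Apc polyps, -6.09, -5.03, -5.84 and -5.85 in Apc normal tissue, and -5.58, -6.64, -6.09 and -5.95 in wild-type tissue. Polyps were at least 3.42-fold higher than Apc normal tissue and at least 3.87-fold higher than wild-type tissue. Pcdhb15 showed the same detection, at -5.25, -4.37, -5.01 and -5.33 in Apc polyps, -6.32, -5.89, -6.30 and -6.55 in Apc normal tissue, and -6.95, -6.36, -6.05 and -6.41 in wild-type tissue. It was at least 1.66-fold higher in polyps than in Apc normal tissue and at least 1.9-fold higher than in wild-type tissue, and polyp arrays were apart from all normal arrays. The limma adjusted p against Apc normal tissue was 7.58e-05 for Pcdhb3, 0.00154 for Pcdhb10 and 0.00313 for Pcdhb15. These p-values rest on normal arrays without detection and are not evidence of a difference. These bounds do not hold under normexp, where Pcdhb3 was 1.80-fold, Pcdhb10 1.80-fold and Pcdhb15 1.29-fold higher than in Apc normal tissue, and 1.88-fold, 1.84-fold and 1.27-fold higher than in wild-type tissue.

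Pcdhb18 and Pcdhb22 were measured on some normal arrays. Pcdhb18 was detected on 3 of 4 Apc normal and 3 of 4 wild-type arrays, at -3.04, -3.09, -3.42 and -2.97 in Apc polyps, -5.37, -4.90, -5.39 and -5.15 in Apc normal tissue, and -5.96, -5.16, -4.76 and -4.84 in wild-type tissue. Polyps did not overlap with either normal group, and the difference was 2.07 ± 0.15 against Apc normal and 2.05 ± 0.26 against wild-type tissue. Pcdhb22 was detected on 1 Apc normal array and on no wild-type array, at -3.91, -2.45, -3.54 and -3.78 in Apc polyps, -5.59, -5.32, -5.55 and -5.02 in Apc normal tissue, and -6.34, -5.50, -5.96 and -6.29 in wild-type tissue. Polyp 106 was the brightest, all polyps exceeded all normal arrays, and the difference from Apc normal tissue was 1.94 ± 0.32 (limma, adjusted p = 0.00178). Against wild-type tissue it was at least 5.15-fold higher, and 2.15-fold higher under normexp. With the genes that have only a bound set at it, the median difference of the 15 tested beta genes was 1.77 against Apc normal tissue, where 3 genes are at a bound and the fitted median is 1.93. Against wild-type tissue it was 2.05, with 4 genes at a bound and a fitted median of 2.20.

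Not all tested beta genes were called against Apc normal tissue, and 3 were not. Pcdhb9 was detected on 2 of 4 Apc normal arrays and 3 of 4 wild-type arrays, at -3.27, -3.26, -3.52 and -3.50 in Apc polyps, -7.58, -3.83, -6.44 and -4.04 in Apc normal tissue, and -6.12, -5.55, -4.43 and -4.36 in wild-type tissue. Normal arrays spread over several units, with Apc normal 103 the lowest. Its difference was 2.09 ± 0.80 against Apc normal tissue (limma, adjusted p = 0.0645) and 1.73 ± 0.38 against wild-type tissue (adjusted p = 0.00498). It was called against Apc normal tissue under 8 of 21 alternatives, with adjusted p of 0.0149 to 0.0492, among them the median of each array (2.10, adjusted p = 0.049), the value table (2.10, adjusted p = 0.0486) and normexp (0.86, adjusted p = 0.0149). Pcdhb12 was at -2.87, -3.68, -3.78 and -3.91 in Apc polyps, -3.74, -3.99, -3.87 and -4.04 in Apc normal tissue, and -4.37, -4.72, -4.79 and -4.77 in wild-type tissue. Polyp and Apc normal arrays overlapped, with a difference of 0.35 ± 0.23 (adjusted p = 0.244), whereas wild-type arrays lay below all others, with a polyp difference of 1.10 ± 0.23 (adjusted p = 0.00367). For Pcdhb14 the difference was 0.56 ± 0.26 against Apc normal (adjusted p = 0.122) and 0.88 ± 0.24 against wild-type tissue (adjusted p = 0.0124). Without Apc normal 110 the difference from Apc normal tissue was 0.77 with an adjusted p of 0.0289.

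Within mice the 9 beta genes detected on all polyp and Apc normal arrays were higher in the polyp than in the normal tissue of the same mouse in 36 of 36 pairs. Over all 17887 genes so detected, 45.6% of pairs were higher in the polyp. By gene, all 9 were higher in all 4 mice, as were 27.6% of those 17887 genes. The pairs come from 4 mice, so they are not independent observations. For Pcdhb7 the difference by mouse ran over 2.15 to 4.51, and for Pcdhb21 over 1.80 to 2.23. Mouse 103 had the largest difference for 13 of the 15 tested beta genes, and mouse 106 for the other 2, Pcdhb15 and Pcdhb22. Of those 15 genes 6 passed the filter through the polyps alone. The share of all genes with their largest difference in mouse 103 is not given here, so this count is not read as a trait of the beta genes. The pairs of alpha, gamma and unclustered genes were mixed, with 4 of 12, 4 of 12 and 20 of 40 higher in the polyp. Both tissues of a mouse shared a slide, and within slide 2 alone 12 protocadherins were called higher and 1 lower, where 7.33% of all tested genes were called higher and 9.93% lower. Within slide 3 alone 11 were higher and 1 lower, against 4.58% and 4.89% of all genes. Both counts of higher calls include Pcdhb3, Pcdhb10 and Pcdhb18, which the filter selected through the polyps, so these counts are a description and not support. The 3 lower calls of the 8 arrays were not made within slide 3, with adjusted p of 0.0541 for Pcdhac2, 0.0812 for Pcdh20 and 0.182 for Pcdh1, and the 1 lower call there was Pcdh17 (-1.97, adjusted p = 0.0347).

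**Figure D2:**
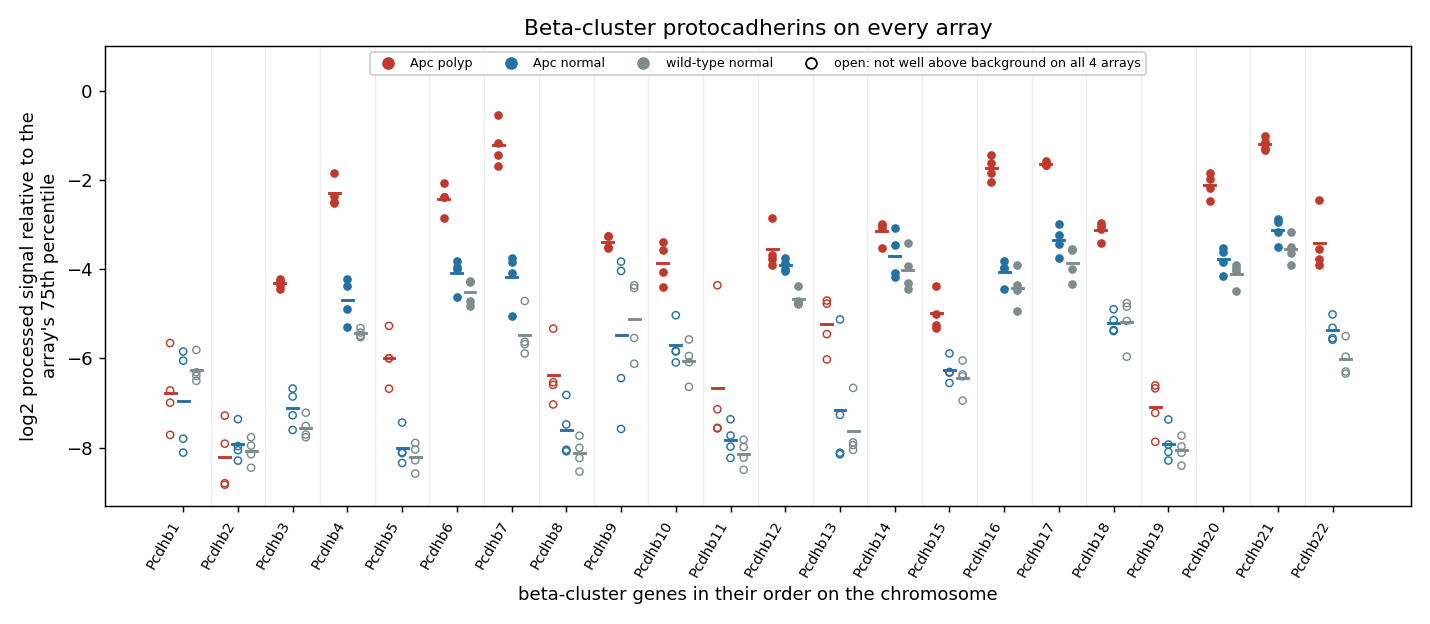
Levels of the 22 beta genes, in chromosome order, as log2 processed signal above or below the array's 75th percentile; each point is 1 array, short bars are group means, and open points mark a group in which the probe was not well above background on all 4 arrays. Polyp arrays lie above the normal arrays for Pcdhb3 to Pcdhb7, Pcdhb9, Pcdhb10, Pcdhb15 to Pcdhb18 and Pcdhb20 to Pcdhb22. Of these Pcdhb5 was not tested and was detected on 2 polyp arrays alone. Pcdhb3, Pcdhb9, Pcdhb10, Pcdhb15, Pcdhb18 and Pcdhb22 passed the filter through the polyps alone. The share of all genes with polyp arrays so separated is not given here. Pcdhb2 and Pcdhb19 were not detected on any array.

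The remaining 7 beta genes (Pcdhb1, Pcdhb2, Pcdhb5, Pcdhb8, Pcdhb11, Pcdhb13 and Pcdhb19) were not tested, and they are interspersed among the tested genes along the cluster. Pcdhb13 was above background on 3 polyp arrays and 1 Apc normal array, and Pcdhb5 on 2 polyp arrays. Pcdhb1, Pcdhb8 and Pcdhb11 were above it on 1 polyp array each, and Pcdhb2 and Pcdhb19 on none of the 12. None of the 7 was detected on a wild-type array. Every beta probe is annotated to 1 gene, and the longest run of bases that any pair of beta probes shares is 12, between Pcdhb5 and Pcdhb13. Cross-hybridisation between these similar genes was not tested.

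Between Apc normal and wild-type tissue no protocadherin was called, among the 31 tested, where 0.149% of all tested genes were called higher and 0.0199% lower by limma. At an unadjusted p under 0.05 there were 8 protocadherins, against 3439 of all 20082 genes. Of the 15 beta genes 13 had a positive difference, with a median of 0.43, where the median of all tested genes was -0.02. Pcdhb3, Pcdhb10 and Pcdhb15 were detected on no array of these groups and Pcdhb22 on 1, so their signs are not measured. Pcdhb7 had the largest, 1.30 ± 0.35 (adjusted p = 0.149), and Pcdhb12 was 0.75 ± 0.13 (adjusted p = 0.0665). With Apc normal 103 left out, 3 protocadherins were called higher and 1 lower, among them Pcdhb7 at 1.59 (adjusted p = 0.0442), Pcdhb4 at 0.94 (adjusted p = 0.0463) and Pcdhac2 at -1.19 (adjusted p = 0.0407). The share of all genes called without that array is not given here, so these calls describe that fit alone.

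Few alpha genes gave signal, and a probe shared by several of them, at the 3′ end of the cluster, was lower in polyps. Of 7 alpha genes 3 were tested, of which 1 was called lower than in Apc normal tissue and none higher. The used probe of Pcdhac2 is annotated to Pcdha4, Pcdha9, Pcdhac1 and Pcdhac2 and lies beyond all other alpha probes, at chr18:37347235-37347294, so its value is not that of Pcdhac2 alone. No protocadherin probe lists more than 4 RefSeq accessions, so that this probe and the shared gamma probe may read more isoforms than their annotation names. Its levels were -6.23, -5.68, -5.63 and -5.31 in Apc polyps, -3.86, -4.68, -4.25 and -4.42 in Apc normal tissue, and -3.39, -3.59, -3.22 and -2.83 in wild-type tissue. The 3 groups did not overlap with each other, with polyps lowest and wild-type tissue highest, and in polyps it was above background on 2 of 4 arrays. The difference was -1.41 ± 0.24 against Apc normal tissue, 2.66-fold lower (limma, adjusted p = 0.00194), and -2.45 ± 0.23 against wild-type tissue (adjusted p = 5.07e-05). Apc normal against wild-type tissue gave -1.04 ± 0.22 (adjusted p = 0.0964), and in a fit of all 12 arrays the adjusted p was 0.0573, or 0.0272 with slide as a random block. The block correlation was -0.08, and since slide 1 held all wild-type arrays this block does not separate slide from genotype. A further probe, annotated to Pcdhac2 alone, was detected on 2 polyp, 1 Apc normal and 1 wild-type array and was not tested.

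Pcdha8 was also read by a probe shared with Pcdha4 and Pcdha7. Its difference was 0.07 ± 0.21 against Apc normal tissue (adjusted p = 0.805) and -0.71 ± 0.15 against wild-type tissue (adjusted p = 0.00377), and the probe for Pcdha8 alone was detected on 1 wild-type array. Pcdha9 did not pass in any comparison, with -0.08 ± 0.25 against Apc normal tissue. Pcdha11 and Pcdha12 were detected on 1 polyp array each, Pcdhac1 on 2 polyp arrays and 1 Apc normal array, and Pcdha4 on none.

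The 3 tested gamma genes were above background on every array, and none was called against Apc normal tissue. The brighter Pcdhga9 probe is annotated to Pcdhga1, Pcdhga5, Pcdhga6 and Pcdhga9 and lies beyond the other gamma probes, at chr18:38001378-38001437. Its levels were 2.85, 2.50, 2.06 and 2.12 in Apc polyps, 2.02, 1.90, 1.92 and 1.84 in Apc normal tissue, and 1.85, 2.28, 2.24 and 2.11 in wild-type tissue. Polyp arrays lay above the Apc normal arrays and overlapped with the wild-type arrays, and the difference of 0.46 ± 0.18 from Apc normal tissue missed the threshold (limma, adjusted p = 0.0689). It passed under 5 alternatives, quantile normalization among them (0.58, adjusted p = 0.0339). The other probe of that shared region differed by -0.02 ± 0.16. Within an array the brighter probe exceeded the other by 5.41 ± 0.12 in polyps and 4.93 ± 0.16 in Apc normal tissue (SD, n = 4), a change of 0.48 that was positive in 4 of 4 mice. An exact two-sided permutation test paired by mouse gave p = 0.125, the smallest that 4 mice allow, also after adjustment over 4 such pairs of probes, so the design cannot reach the threshold.

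Pcdhgc5, a C-type isoform, was at -4.38, -4.67, -3.87 and -3.64 in Apc polyps, -4.31, -1.83, -3.07 and -2.76 in Apc normal tissue, and -3.84, -2.76, -3.16 and -2.48 in wild-type tissue. Polyp values overlapped with both normal groups, through Apc normal 103 and wild-type 102. The difference was -1.14 ± 0.49 against Apc normal tissue (limma, adjusted p = 0.0921) and -1.08 ± 0.33 against wild-type tissue (adjusted p = 0.0221). The first was -1.58 with an adjusted p of 0.0129 without Apc normal 103. Leaving out wild-type 104 or 108 or polyp 103 or 106 ended the call against wild-type tissue, with adjusted p of 0.0537 to 0.0592. Pcdhgb1 differed by -0.71 ± 0.34 from Apc normal tissue (adjusted p = 0.131), and with the mouse as a block its adjusted p was 0.0484, which made it a call. Pcdhga1 and Pcdhga5 were not detected on any array and Pcdhga10 only on 2 polyp arrays.

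Among the 12 unclustered genes 10 were tested, of which 2 rose and 2 fell in polyps against Apc normal tissue. Pcdh19, an X-linked delta protocadherin whose human form is mutated in an epilepsy of girls, had the largest difference of any protocadherin in that comparison. Its levels were 0.40, -0.49, -1.45 and -1.56 in Apc polyps, -3.80, -3.89, -3.98 and -3.70 in Apc normal tissue, and -4.15, -3.82, -3.86 and -4.92 in wild-type tissue. Polyp arrays were apart from both normal groups, with mice 103 and 106, which shared a slide, above 107 and 110. Polyps were 8.38-fold above Apc normal tissue (3.07 ± 0.41, limma, adjusted p = 0.00067) and higher by 3.41 ± 0.46 than in wild-type tissue (adjusted p = 0.000348). By mouse the difference was lowest in mouse 110 and highest in mouse 103.

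Pcdh7 was read at different transcript ends. At the variant 2 probe its levels were -2.66, -2.86, -3.03 and -3.72 in Apc polyps, -4.63, -4.14, -5.36 and -4.28 in Apc normal tissue, and -4.47, -4.52, -4.05 and -6.35 in wild-type tissue. Polyp arrays lay above all normal arrays, and the difference was 1.53 ± 0.32 against Apc normal tissue (limma, adjusted p = 0.00548) and 1.78 ± 0.49 against wild-type tissue (adjusted p = 0.0138). With every probe as its own feature, the variant 1 probes differed by 0.46 ± 0.25 (adjusted p = 0.163) and 0.18 ± 0.21 (adjusted p = 0.515) from Apc normal tissue, which did not pass. Against wild-type tissue the first variant 1 probe was higher by 0.64 ± 0.17 (adjusted p = 0.0111), which passed, and the second differed by -0.28 ± 0.33 (adjusted p = 0.482). Within an array the variant 2 probe stood 1.65 ± 0.50 above the first variant 1 probe in polyps and 0.58 ± 0.51 above it in Apc normal tissue (SD, n = 4). The change of 1.07 was positive in 4 of 4 mice (exact two-sided permutation test paired by mouse, p = 0.125, the smallest that 4 mice allow). Against the second variant 1 probe the change was 1.35, with the same p. These pairs were picked after their values were seen. The mean over the 3 probes gave 0.71 against wild-type tissue with an adjusted p of 0.0592, which ends that call.

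**Figure D3:**
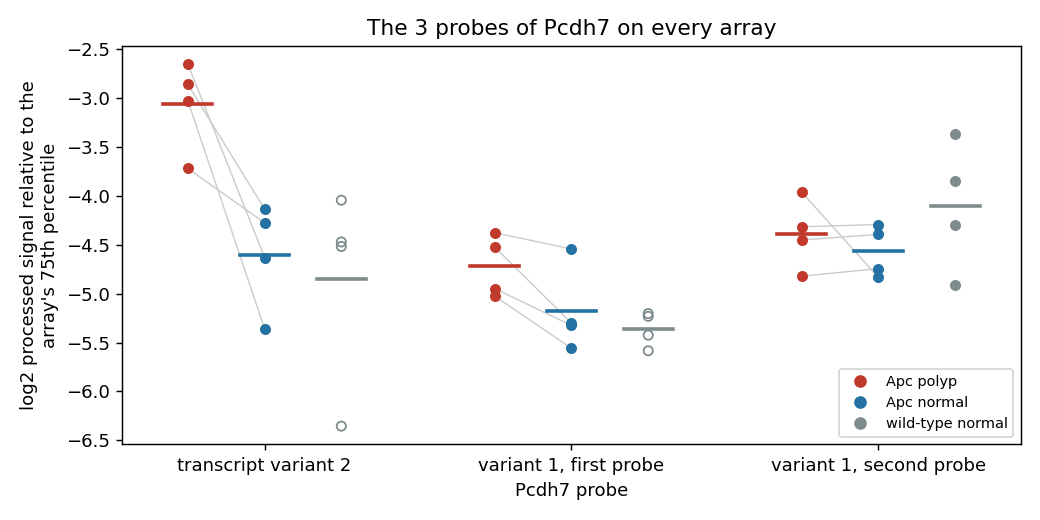
Levels of the 3 Pcdh7 probes as log2 processed signal above or below the array's 75th percentile, with 1 point per array, bars at group means, grey lines joining the polyp and normal tissue of a mouse, and open points for a group not well above background on all 4 arrays. The variant 2 probe separates polyps from both normal groups, while the second variant 1 probe does not.

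Pcdh20, studied as a tumour suppressor in human cancers, was lower in polyps. Its levels were -6.36, -6.20, -6.71 and -5.42 in Apc polyps, -4.93, -4.01, -2.88 and -3.90 in Apc normal tissue, and -4.27, -4.02, -3.59 and -3.68 in wild-type tissue. No polyp array reached a normal array, and polyps were above background on 2 of 4 arrays. The difference was -2.24 ± 0.44, 4.74-fold lower than the normal tissue of those mice (limma, adjusted p = 0.00412), and -2.28 ± 0.28 against wild-type tissue (adjusted p = 0.000213). Pcdh1, an epithelial protocadherin that in humans is linked to asthma and serves hantaviruses as a receptor, was at 2.45, 1.99, 1.94 and 2.31 in Apc polyps, 2.98, 2.57, 2.58 and 2.88 in Apc normal tissue, and 2.80, 2.76, 2.72 and 2.95 in wild-type tissue. Polyps did not overlap with either normal group, and the difference of -0.58 ± 0.16 from Apc normal tissue passed the test (adjusted p = 0.0198). A dimmer Pcdh1 probe from a cloned transcript went the other way, by 0.67 ± 0.53 (adjusted p = 0.334), with polyp 106 far above the rest. The gap between these probes changed by -1.25 (exact two-sided permutation test paired by mouse, p = 0.125, the fourth of the pairs so compared), and the mean over both probes gave 0.047 (adjusted p = 0.895).

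Pcdh17, a delta protocadherin of brain and vessels, was at -2.32, -2.87, -3.44 and -3.33 in Apc polyps, -2.61, -3.22, -1.17 and -1.65 in Apc normal tissue, and -2.57, -1.22, -2.07 and -1.44 in wild-type tissue. Polyp arrays overlapped with both normal groups. It was not called against Apc normal tissue (-0.83 ± 0.46, limma, adjusted p = 0.18), where the polyps of mice 103 and 106 were higher and those of 107 and 110 lower than their normal tissue. Against wild-type tissue it was lower by -1.17 ± 0.35 (adjusted p = 0.02), and without wild-type 104 or 108 or polyp 107 or 110 the adjusted p was 0.052 to 0.0531. Pcdh9 differed by -0.88 ± 0.31 from wild-type tissue (adjusted p = 0.0395), a call that any of 7 single arrays ended, and by -0.12 ± 0.53 from Apc normal tissue. Only 1 of its 3 probes was tested.

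The other unclustered genes were not called in any comparison. They were Pcdh12, the endothelial protocadherin (-0.01 ± 0.17 against Apc normal tissue), Pcdh18 (0.24 ± 0.18), Pcdh11x (-0.06 ± 0.38) and Pcdh15, a tip-link protein of inner-ear hair cells (-0.23 ± 0.32). Pcdh11x was read only by a probe of a cloned transcript, and its other 2 probes were detected on no array. Pcdh15 was tested through 1 of 7 probes. Pcdh8 was detected on none of the arrays and Pcdh10 on 1 wild-type array.

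**Figure D4:**
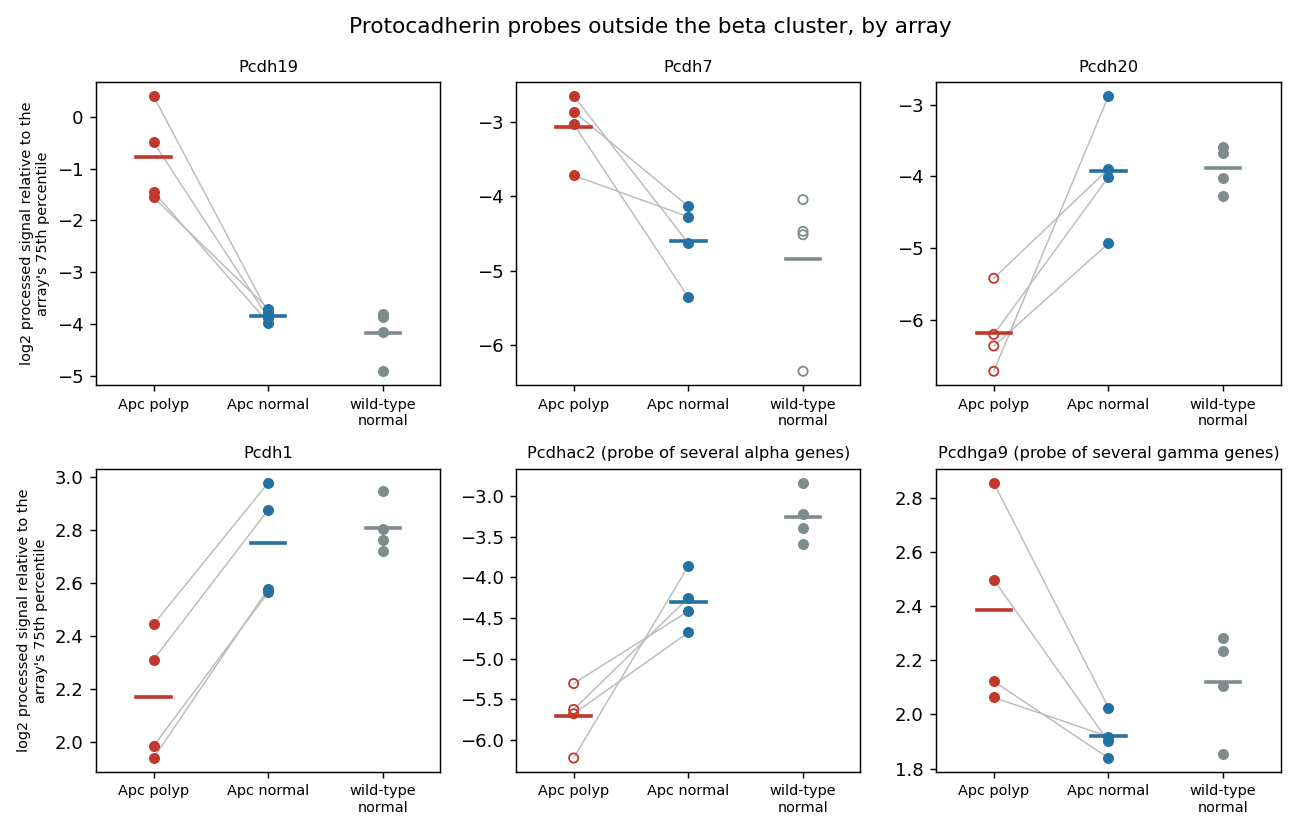
Levels on each array for 6 protocadherin probes outside the beta cluster, as log2 processed signal above or below the array's 75th percentile, with bars at group means, grey lines joining both tissues of a mouse, and open points for a group not well above background on all 4 arrays. Pcdh19 and Pcdh7 are higher and Pcdh20, Pcdh1 and Pcdhac2 lower in all 4 polyps than in the normal tissue of the same mouse, and Pcdhga9 lies higher without passing the test.

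Markers of other cell types moved between the same tissues, beside 20.5% of all tested genes called higher and 24.9% lower than in Apc normal tissue. Of the enteric neuron markers, which name cells rich in protocadherins, 8 of 10 tested fell in polyps against Apc normal tissue and none rose, with a mean level of -4.54 to -3.11 in polyps, -1.74 to -1.31 in Apc normal and -1.41 to -0.47 in wild-type tissue. All 5 tested glial markers fell, at -4.87 to -4.02 in polyps, -2.76 to -2.31 in Apc normal and -2.49 to -1.97 in wild-type tissue. All 10 smooth muscle markers fell, at -1.59 to -0.20 in polyps, 2.61 to 3.02 in Apc normal and 3.03 to 3.59 in wild-type tissue. All 7 enteroendocrine markers also fell, at -2.36 to -1.40 in polyps, 1.15 to 1.27 in Apc normal and 1.04 to 1.37 in wild-type tissue. Their part in the lower Pcdhac2, Pcdh20 and Pcdh17 values was not tested. Mast cell markers rose in 3 of 4 and fell in 1, at 0.41 to 2.32 in polyps, -1.99 to -0.96 in Apc normal and -3.32 to -2.22 in wild-type tissue, and macrophage markers in 2 of 4. Endothelial markers had 1 higher and 1 lower of 8, and fibroblast markers 1 higher and 3 lower of 8. The part of these cells in the higher beta, Pcdh19 and Pcdh7 values was not tested.

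Other genes near the clusters moved in both directions. Within 1 Mb on either side, 39 other genes were tested against Apc normal tissue, of which 5 (12.8%) rose and 12 (30.8%) fell in polyps, with a median difference of -0.0037. Taf7, a general transcription factor gene that lies between the beta and gamma clusters, fell by 0.58 (limma, adjusted p = 0.00616). The other tested transcripts within the span of the clusters were not called. Among the 5 that rose were Gm6756 (1.94 ± 0.22, adjusted p = 0.00031) and Hbegf (1.42 ± 0.41, adjusted p = 0.0236), both before the clusters. Over the 465 other tested genes of chromosome 18, 22.6% rose and 23.4% fell, with a median of -0.0064. The window was set after the values were seen.

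Chromatin factors known to act on the clustered locus were partly higher in polyps. Of 15 listed genes 7 were higher than in Apc normal tissue and none lower, with a median of 0.30, where 20.5% of all tested genes were higher and 24.9% lower. They included the DNA methyltransferase Dnmt3b (1.82 ± 0.17, limma, adjusted p = 0.000169) and Smchd1, a chromatin protein that represses clustered protocadherins in mice (0.64 ± 0.12, adjusted p = 0.00279). Ctcf and the cohesin subunit Rad21, which loop enhancers to protocadherin promoters, differed by 0.28 ± 0.12 (adjusted p = 0.0819) and 0.27 ± 0.13 (adjusted p = 0.143). Of 18 intracellular partners and processing enzymes 3 were higher and 5 lower, shares near those of all genes. Adam10, the protease that sheds protocadherin ectodomains, was higher by 0.74 ± 0.10 (adjusted p = 0.000703).

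Directions of related cadherins differed between lists, beside 20.5% of all tested genes called higher and 24.9% lower than in Apc normal tissue. Of the 8 tested giant and seven-pass cadherins 3 were higher and 1 lower, with Celsr1 (1.14 ± 0.16) and Fat2 (1.68 ± 0.29) the smallest in p. Of the 8 tested classical and other cadherins 2 were higher and 2 lower, shares near those of all genes, Cdh13 differing by 2.30 ± 0.18 and Cdh2 by -1.26 ± 0.24. In the brush border complex, whose cadherin-related proteins join microvillus tips, 6 of 7 genes were lower and none higher, with a median of -2.35 and with Anks4b at -2.35 ± 0.19.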

How the data were processed

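RNA of 12 mouse colorectal tissue samples was hybridised to Agilent 1-colour whole-genome arrays, labelled with Cy3 from 0.1 ug of total RNA per the labels' protocols. The authors' scanner files hold, per the file headers, an intensity for each spot after background subtraction by Agilent Feature Extraction 10.7.3.1, and no scaling between arrays is recorded. The deposited value table holds a linear ratio; on each array 99.78 to 99.86% of its probes lay within 1% of the processed signal over a constant, its column medians were 0.9999 to 1, its rows were not centred by gene as far as this match shows, with its making not given in the sources used here.

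Deposited intensities were converted to log2, the 75th percentile of each array was subtracted, spots of a probe were averaged without control spots and 1403 outlier spots, and each gene was read by its brightest probe. Of 39429 probes 27502 were named by accession, 3549 by symbol and 404 by synonym in RefSeq GRCm38.p6, and 7974 kept the file's name. Tests used limma 3.58.1 in R 4.3.3, tested on simulated data, and scipy 1.17.1 for permutations. The family, gene lists and tests were chosen with earlier results of these data known. All tested members were named, and values by array were given for those called in a polyp comparison with a difference of at least 1. Polyp and normal samples were paired by the shared numbers in the titles. Deviations from group means in both tissues of a mouse correlated at 0.46, 0.17, 0.14 and 0.28 (mice 103, 106, 107 and 110). Between different mice the values were -0.33 to 0.19. Normal tissue of mouse 106 correlated at 0.19 with polyp 110, above its own polyp, so these values do not single out that pair. Alternatives covered scaling, background, filter, probe choice, slide and mouse blocks and left-out arrays, and the fit of each probe as its own feature was chosen after seeing the data. Each sample is 1 tissue of 1 mouse per the titles, and p-values measure the spread between these arrays, whose number limits the precision.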

Additional observations from a re-analysis of the deposited data

Results flagged for a closer look

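Within groups of 4 arrays, 4 values among 93 groups of tested protocadherins stood apart from the other 3 by more than Dixon's critical value, where chance flags about 1 in 20. Pcdh12 was lowest on wild-type array 108, at -3.84, with the nearest at -2.07. Pcdh18 was lowest on Apc normal array 107, at -2.48, with the nearest at -1.84. Pcdhb14 was lowest on polyp array 107, at -3.52, with the nearest at -3.07. Pcdhb12 was highest on wild-type array 102, at -4.37, with the nearest at -4.72.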

How the results depend on the processing

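Against Apc normal tissue, 14 higher and 3 lower protocadherins became 9 and 1 when only probes well above background on all 8 arrays were kept, since 22 rather than 31 were then tested. Leaving out each array in turn gave 14 to 16 higher and 2 to 5 lower, with 5 lower without Apc normal 103. Within slide 2 alone there was 1 lower (Pcdh20) and within slide 3 alone 1 lower (Pcdh17, not called on all 8 arrays), each from 4 arrays. Fitted with the mouse as a block, 14 were higher and 4 lower, with Pcdhgb1 the added call, and this pairing ended no call. Against wild-type tissue the filter on all 8 arrays left 8 higher of 19 tested (26.7% of all genes passing it were higher), no filter on dim probes gave 24 higher of 47, and leaving out each array gave 17 to 17 higher and 4 to 7 lower, with 4 without wild-type 104 and 4 without wild-type 108. Between Apc normal and wild-type tissue, where none was called, slide as a random block gave 1 higher and 2 lower and the fit of 12 arrays without it none, and leaving out each array gave 0 to 3 higher and 0 to 1 lower, with 3 and 1 without Apc normal 103. Where no share of all genes stands beside a count, the count describes that fit and is not read as a result about protocadherins. The mean over probes turned Pcdh1 to 0.047 against Apc normal and 0.089 against wild-type tissue, because its 2 probes differ in sign. The Pcdh1 call against Apc normal tissue also missed the threshold with the median of each array (adjusted p = 0.0516), quantile normalization (0.0562), the value table (0.0531), and without polyp 106 (0.0593) or 107 (0.0537). The causes of the other changes were not tested. Genes near background, such as most alpha and many beta genes, limit what these arrays can show.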
